A study of Homo sapiens with 30 samples.

Results

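Peak lists from MACS2 and SEACR were compared within the same CUT&Tag libraries of K562, a human cell line established from chronic myeloid leukaemia. The libraries were the 6 untreated ones with SDS extraction and 15 PCR cycles for which both lists were at hand, out of 30 in the series. On chromosomes 1 to 22 and X their 12 lists held 316789 peaks, of 745005 in all 36 lists. In CUT&Tag a transposase is tethered to an antibody on chromatin and inserts sequencing adapters into nearby DNA.

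H3K27ac was profiled with Abcam-ab177178, Abcam-ab4729 and Active Motif 39133, each at 1/100, and with Diagenode C15410196 at 1/50 and at 1/100. H3K27me3 was profiled with CST9733 at 1/100. None of these libraries received trichostatin A, and each experiment used 500000 cells, per the labels. There was 1 library per condition, and replicate error could therefore not be measured. The Diagenode libraries share an antibody and count as separate conditions here.

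H3K27ac marks active promoters and enhancers and usually forms narrow peaks that can cluster into broad active domains. H3K27me3 is laid down by Polycomb repressive complexes and often spreads over long, shallow domains. MACS2 tests local read density for enrichment and reports a summit, the base of highest pileup. SEACR takes blocks of unbroken signal and keeps those with a high total signal, and it also reports the stretch of highest signal in each block. The question was whether the callers found the same places, where each drew the boundaries, and what each found alone.

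The callers' lists were not cut at one strength. The lowest −log10 q in a MACS2 list was 5.04 to 6.26 for H3K27ac and 1.76 for CST9733, although the peak names of all 6 lists carry a q of 1e-05. The CST9733 list also has 9 columns in place of 10 and gives no summit. MACS2 writes 9 columns without a summit when it is run in broad mode, which joins nearby enriched stretches into wider peaks, and the sources used do not say whether this list was called that way. The lowest total signal kept by SEACR was 8528 with ab4729, 5455 with Diagenode at 1/50, 2714 with ab177178, 2442 with Diagenode at 1/100, 1492 with Active Motif and 1207 with CST9733. A difference between the marks therefore cannot be told apart from the unlike cutoffs, file layout and possible calling mode, nor from antibody, with 1 H3K27me3 library. Read depth is unknown for all 6 libraries. Sequences not analysed, those other than chromosomes 1 to 22 and X, took 0.549% to 8.71% of a MACS2 list and 0.532% to 5.82% of a SEACR list.

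In H3K27ac, MACS2 placed several peaks inside the widest SEACR peaks, which were a minority of each list. SEACR peaks of at least 5000 bp made up from 0.496% of the list with Active Motif to 11.7% with ab4729. Over all widths, the share of SEACR peaks that overlapped 2 or more MACS2 peaks ran from 3.47% with Active Motif to 28.9% with Diagenode at 1/50. A SEACR peak of at least 5000 bp overlapped, by at least 1 bp, a mean of 3.69 MACS2 peaks with ab177178, 2.75 with ab4729, 4.00 with Active Motif, 3.001 with Diagenode at 1/50 and 3.77 with Diagenode at 1/100. A SEACR peak under 1000 bp overlapped a mean of 0.664, 0.982, 0.601, 0.973 and 0.830 MACS2 peaks in the same order of libraries. In CST9733 the widest and the narrowest class were close, at 1.04 and 0.909. The wide class was higher in all 6 libraries, by a mean of 2.21 ± 1.20 MACS2 peaks per SEACR peak (SD, n = 6 libraries; exact two-sided sign-flip permutation test, p = 0.031, adjusted 0.0469 over 6 tests, where 0.031 is the smallest p possible). Wide SEACR peaks also offer more room, and no SEACR peak under 1000 bp overlapped more than 2 MACS2 peaks. The direction was thus largely set by width, and the test cannot tell nesting from interval length. Per kb the direction was reversed in all 6 libraries. The density in SEACR peaks of at least 5000 bp was 0.508 MACS2 peaks per kb with ab177178, 0.371 with ab4729 and 0.372 with Active Motif. It was 0.412 with Diagenode at 1/50, 0.419 with Diagenode at 1/100 and 0.136 in CST9733. Under 1000 bp it was 0.792, 1.21, 0.846, 1.25, 1.02 and 1.26 in that order. The widest class was small in some lists, with 15 SEACR peaks for Active Motif and 47 for Diagenode at 1/100, against 1567 for ab4729. The distance of CST9733 from the H3K27ac libraries depended on these settings. With fixed widths the difference was 1.77 to 3.40 in H3K27ac and 0.128 in CST9733. With peaks merged within 1 kb the mean was 1.07, and ab4729 at 0.615 and Diagenode at 1/50 at 0.658 were level with CST9733 at 0.623. With 5 equal groups by width the mean was 0.638, and Active Motif at 0.111 was close to CST9733 at 0.069.

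**Figure D1:**
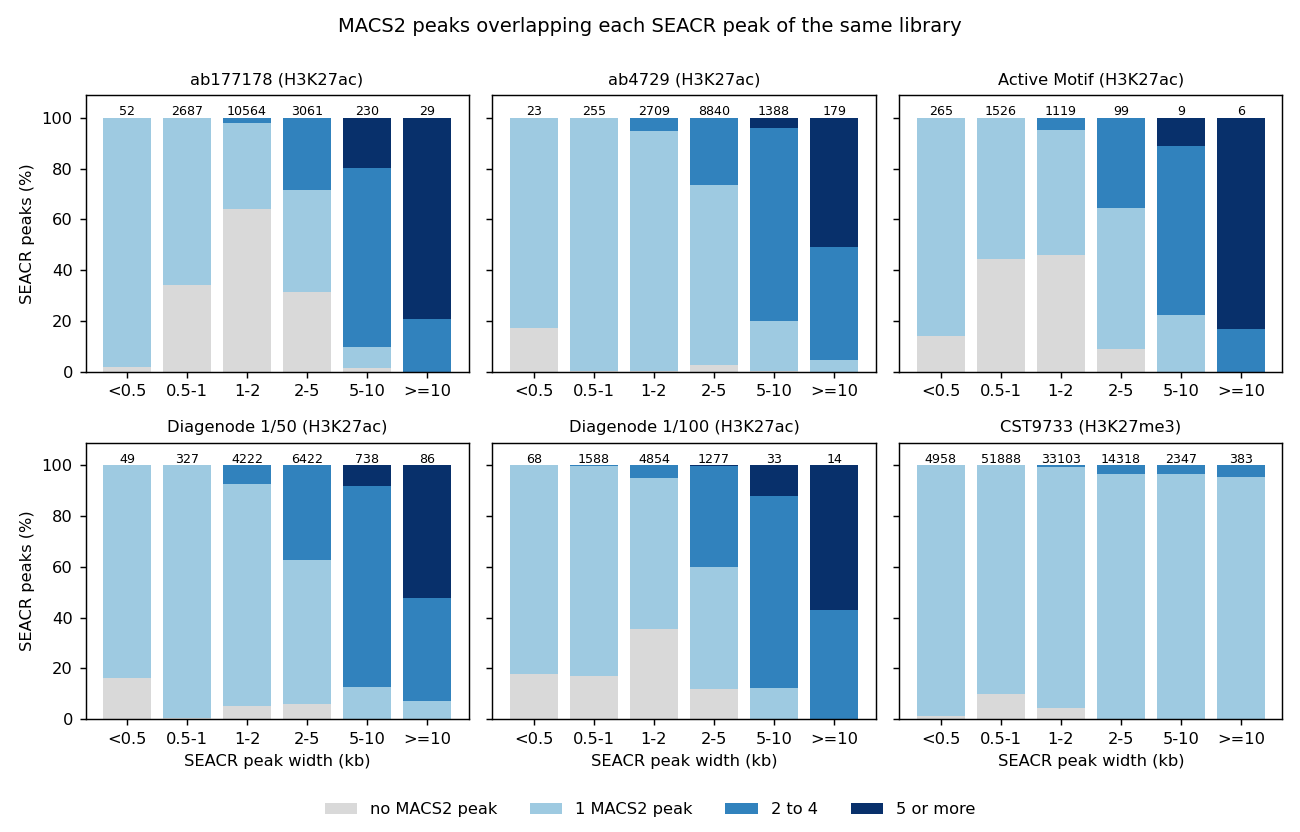
Share of SEACR peaks (vertical axis, percent) that overlapped no, 1, 2 to 4, or 5 or more MACS2 peaks of the same library, by SEACR peak width in kb, with the number of SEACR peaks above each bar. The share with 2 or more rises with width in all 5 H3K27ac panels and stays below 5% in every width class of CST9733.

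The share of wide SEACR peaks holding 2 or more MACS2 peaks is drawn from the same overlaps. This share also depends on interval length and is no separate evidence of a contrast between the marks. At 5000 to 10000 bp it was 90.4% with ab177178, 80.1% with ab4729, 77.8% with Active Motif, 87.3% with Diagenode at 1/50 and 87.9% with Diagenode at 1/100. At 2000 to 5000 bp it ranged from 26.6% to 39.9% in the same libraries. CST9733 stood at 3.37% and 3.51% in these classes. Neighbouring MACS2 peaks in one SEACR peak were separated by a median of 347 to 520 bp in H3K27ac and 885 bp in CST9733.

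In the H3K27me3 library the nesting ran the other way, which cannot be told apart from a broad-mode call of its MACS2 list. Of the 89406 CST9733 MACS2 peaks, 17595 (19.7%) spanned 2 or more SEACR peaks, and these had a median width of 3621 bp. No more than 2 MACS2 peaks did so in any H3K27ac list, with 2 for ab177178, 1 for Active Motif and 0 for the other 3. Among CST9733 MACS2 peaks, 16.8% spanned 2 or more SEACR peaks at 1000 to 2000 bp, 59.9% at 2000 to 5000 bp, 89.2% at 5000 to 10000 bp and 97.3% at 10000 bp or more. Conversely, only 1.67% of CST9733 MACS2 peaks shared a SEACR peak with another MACS2 peak. In H3K27ac that share was 30.8% with ab177178, 36.2% with ab4729, 10.9% with Active Motif, 38.9% with Diagenode at 1/50 and 23.5% with Diagenode at 1/100.

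**Figure D2:**
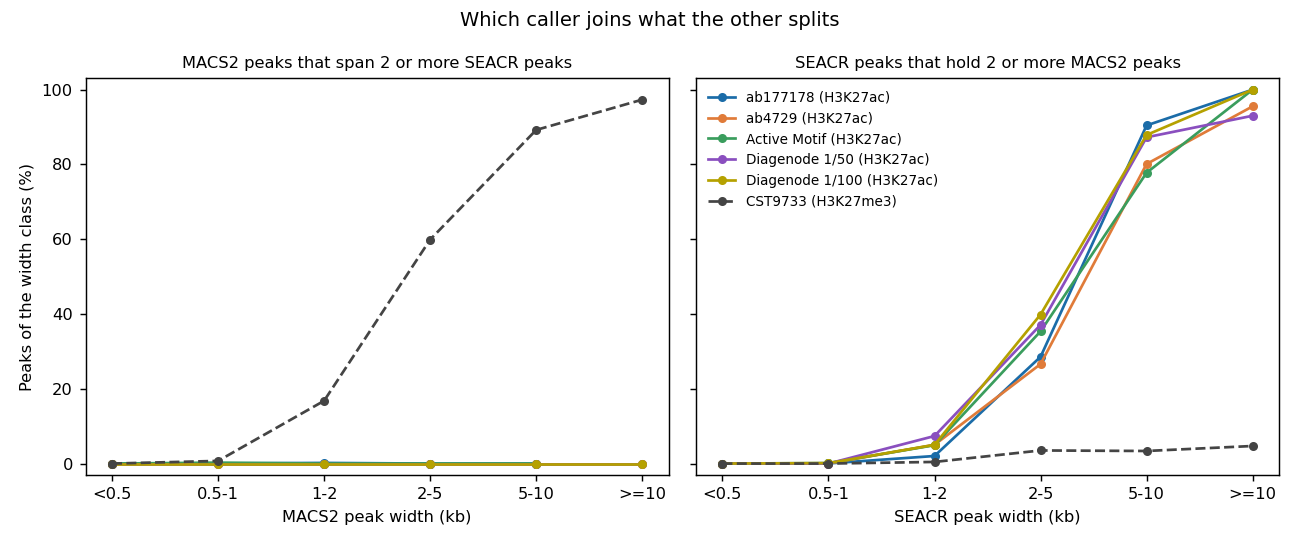
Left, share of MACS2 peaks that spanned 2 or more SEACR peaks, by MACS2 width in kb; right, share of SEACR peaks that held 2 or more MACS2 peaks, by SEACR width in kb; 1 line per library, dashed for H3K27me3. CST9733 climbs to 97.3% on the left and stays under 5% on the right, while the 5 H3K27ac libraries lie at or near 0 on the left and climb on the right.

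The regions where one caller split most were singled out by rule. In ab177178 the SEACR peaks with the most MACS2 peaks were chr22:23582913-23604551 with 15, chr9:133785426-133804960 with 14 and chr22:23255081-23278154 with 13. Both chromosomes contribute to the amplified BCR-ABL1 fusion known in K562, and SEACR signal was not corrected for copy number. In ab4729 the first were chr1:148252853-148319655 with 26 MACS2 peaks and chr4:49093296-49158647 with 25. The chromosome 4 block shows how the split varies among libraries. Diagenode at 1/50 had a single MACS2 peak of 65360 bp there, chr4:49093276-49158635, whereas Active Motif had 7 in one SEACR peak, chr4:49113410-49133261, and 6 in its neighbour, chr4:49093382-49113260. The remaining named Active Motif region, chr4:49633401-49658350 with 6, lay close by. In ab4729 the block stood at percentile 99.96 of total signal. Regions of extreme signal were not removed here, so these blocks need not be H3K27ac domains. Diagenode at 1/50 was led by chr5:17580703-17599459 with 11 MACS2 peaks. In CST9733 the highest number was 4, at chr9:129897582-129902810.

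For the reverse nesting, the CST9733 MACS2 peaks over the most SEACR peaks were taken after the values were seen. The first was chr8:86726465-86783768, 57304 bp wide, which spanned 20 SEACR peaks. The next were chr1:10754709-10830586 with 19 and chr6:37478568-37563635 with 16. Their −log10 q values differed, at 39.2 for the first and 5.55 and 5.61 for the others.

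Where 1 MACS2 peak met 1 SEACR peak, SEACR drew the wider interval. The median ratio of SEACR to MACS2 width over such pairs was 3.46 with ab177178 (6655 pairs), 2.04 with ab4729 (9364), 2.19 with Active Motif (1679), 2.15 with Diagenode at 1/50 (7819), 2.81 with Diagenode at 1/100 (4868) and 1.37 with CST9733 (53743). MACS2 covered 17.5% of SEACR bases with ab177178 and 48.6% with ab4729. SEACR covered 96.0% and 88.1% of MACS2 bases in those libraries. In CST9733 the coverage was nearly even, with 79.6% of SEACR bases in MACS2 peaks and 76.3% of MACS2 bases in SEACR peaks. The pairs of that library leave out the 19.7% of MACS2 peaks that spanned 2 or more SEACR peaks. Its whole MACS2 list covered 155.5 Mb and its SEACR list 149.2 Mb, so SEACR was not the wider caller there by total length. The bases in both lists, as a fraction of those in either, were 0.174 with ab177178, 0.290 with Diagenode at 1/100, 0.297 with Active Motif, 0.446 with Diagenode at 1/50, 0.456 with ab4729 and 0.638 with CST9733.

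Within shared H3K27ac peaks both callers put the centre of the signal at the same place. The summit of the strongest MACS2 peak lay inside the SEACR maximum-signal stretch in 96.5% of shared SEACR peaks with ab177178, 96.0% with ab4729, 95.3% with Active Motif, 96.8% with Diagenode at 1/50 and 97.4% with Diagenode at 1/100. That stretch had a median width of 24, 9, 42, 14 and 29 bp in the same order and took 6.26%, 2.89%, 10.1%, 4.27% and 6.81% of the SEACR bases. Both positions come from the same reads, so the match is no independent evidence of either. The exceptions were few. A summit lay over 1 kb from the stretch in 35 SEACR peaks with ab177178, 38 with ab4729, 1 with Active Motif, 25 with Diagenode at 1/50 and 15 with Diagenode at 1/100.

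The match was lower at the extremes of width. In SEACR peaks under 500 bp the summit was in the stretch in 88.2% of 51 with ab177178 and 68.4% of 19 with ab4729. In those of at least 10000 bp the share was 93.1% of 29 with ab177178, 94.4% of 179 with ab4729, 89.5% of 86 with Diagenode at 1/50, 71.4% of 14 with Diagenode at 1/100 and 33.3% of 6 with Active Motif. The 95% Wilson interval of the last runs from 9.68% to 70.0%, and these intervals cover counting error only. The summit sat in the central 50% of its MACS2 peak in 60.7% to 67.3% of peaks. Its median distance from the SEACR midpoint was 128 bp with Active Motif and 367.5 bp with ab4729, against 0.5 bp from the centre of the SEACR stretch in each of the 5 libraries.

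CST9733 gives no summit, so the overlap of the strongest MACS2 peak with the SEACR stretch was used. They met in 99.9% of shared SEACR peaks, but that MACS2 peak covered 82.4% of their bases. Among the 744 SEACR peaks with 2 or more MACS2 peaks the share was 87.2%. For H3K27ac the same measure gave 98.4% to 99.5%, with 26.0% to 43.5% of the bases covered.

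Each caller also found peaks alone, and which one did so more often depended on the library. MACS2-only peaks made up 27.5% of the MACS2 list with ab4729, 24.1% with Diagenode at 1/50 and 19.2% with CST9733, against SEACR-only shares of 1.93%, 5.13% and 6.22% of the SEACR lists. The order was turned round with ab177178, where 7.75% of MACS2 peaks and 52.0% of SEACR peaks were found by that caller alone, with Active Motif at 16.2% and 40.9%, and with Diagenode at 1/100 at 12.7% and 27.7%. The difference, MACS2 minus SEACR, averaged -4.40 ± 27.8 percentage points (SD, n = 6 libraries; exact two-sided sign-flip permutation p = 0.71875, adjusted 0.71875). Its direction followed list length in the H3K27ac libraries. When the longer list was cut to the length of the shorter by −log10 q or total signal, the difference was -12.8 points with ab4729 and -16.8 with Diagenode at 1/50, against 25.6 and 19.0 with whole lists. It was then negative in all 5 H3K27ac libraries and 26.5 points in CST9733. At equal lengths the sign of this difference depends only on which list holds more shared peaks. It therefore follows from the nesting described above and is no separate evidence on which caller finds more alone. With MACS2 peaks kept only at −log10 q of at least 10 the mean difference was -41.4 points, and CST9733 alone stood at -98.3, against 12.9 with its whole list. The median −log10 q of the CST9733 MACS2 list was 2.34, and a peak at 11.7 stood at percentile 99.8. The cut thus left few of its MACS2 peaks, and its value was largely set by that.

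MACS2-only peaks were narrow. Their median width was 223 bp with ab177178, 372 bp with ab4729, 213 bp with Active Motif, 315 bp with Diagenode at 1/50, 229 bp with Diagenode at 1/100 and 362 bp with CST9733. Shared MACS2 peaks had medians of 365, 875, 349, 699, 414 and 1040 bp in that order, wider in 6 of 6 libraries. The log2 ratio of the medians, MACS2-only over shared, averaged -1.03 ± 0.33 (SD, n = 6 libraries; exact two-sided sign-flip permutation p = 0.031, adjusted 0.0469). Wider peaks overlap others more by size alone. In ab177178 all 840 MACS2-only peaks were under 500 bp. In ab4729 the MACS2-only share was 57.5% under 500 bp, 18.8% at 500 to 1000 bp and 0.158% at 1000 to 2000 bp. In CST9733 it was 32.9%, 27.2% and 8.52% in these classes, and no MACS2 peak of 5000 bp or more was missed by SEACR in any library.

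SEACR-only peaks showed no single direction in width. Their median exceeded that of shared SEACR peaks with ab4729, 2978 against 2726 bp, and with Active Motif, 945.5 against 862 bp. It was below with ab177178, 1372 against 1440 bp, Diagenode at 1/50, 2118 against 2267 bp, Diagenode at 1/100, 1303 against 1366 bp, and CST9733, 852 against 978 bp. The log2 ratio averaged -0.029 ± 0.13 (SD, n = 6 libraries; exact two-sided sign-flip permutation p = 0.5625, adjusted 0.675). With ab177178 the SEACR-only share was highest in the middle of the width range. They were 1.92% of SEACR peaks under 500 bp, 63.98% of those at 1000 to 2000 bp, 31.2% at 2000 to 5000 bp and 1.304% at 5000 to 10000 bp. In ab4729 the share was highest under 500 bp, at 17.4% of 23 peaks, but 248 of the 259 SEACR-only peaks were 2000 to 5000 bp wide. No SEACR peak of 10000 bp or more was missed by MACS2 in any of the 6 libraries.

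**Figure D3:**
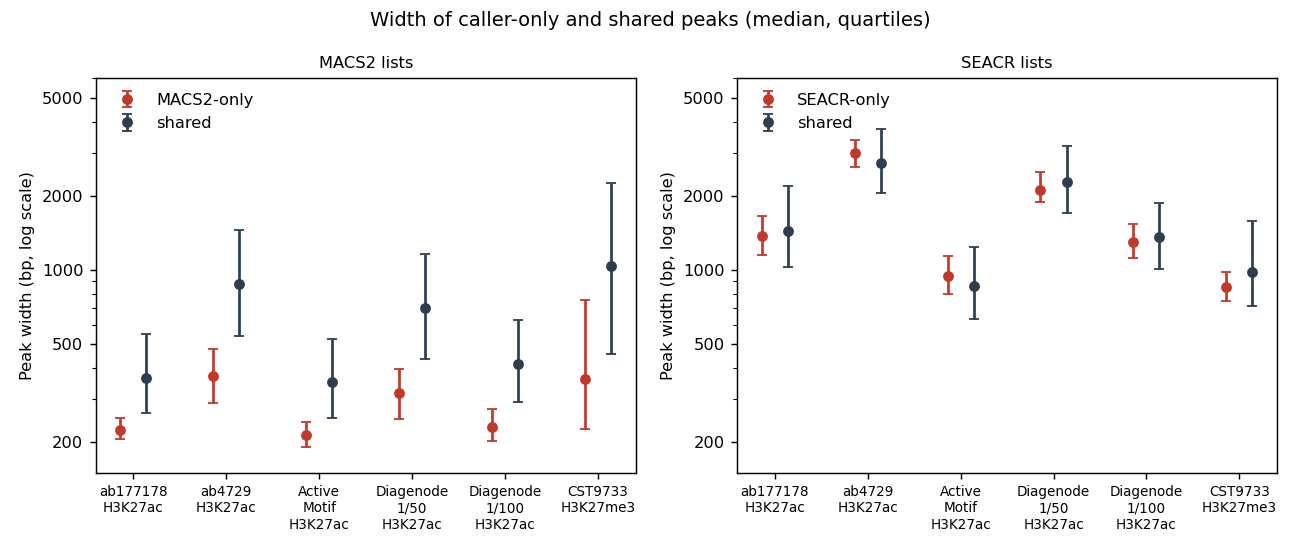
Peak width in bp on a log axis for caller-only and shared peaks of each library, as medians with quartiles, in MACS2 lists (left) and SEACR lists (right). MACS2-only medians, 213 to 372 bp, lie below the shared medians in all 6 libraries, while SEACR-only and shared medians lie close together.

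A narrow peak reaches a high total signal only if its signal is tall. Within its own bounds, a MACS2-only peak of median width would need a mean of 22.9 per base with ab4729 to reach SEACR's lowest total. Shared SEACR peaks of that library had a median of 6.88 per base. With ab177178 these values were 12.2 and 3.91, with Active Motif 7.005 and 3.14, with Diagenode at 1/50 17.3 and 5.34, with Diagenode at 1/100 10.7 and 3.60, and with CST9733 3.33 and 2.62. SEACR sums over its own block, and in one-to-one pairs that block was wider, by a median ratio of 2.04 with ab4729 and 3.46 with ab177178. The values per MACS2 width therefore overstate the height needed and cannot separate missed from found peaks. The signal over MACS2-only peaks themselves is not in the lists, so the part of this threshold in their absence was not tested.

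Caller-only peaks were mostly weak ones. Each list was divided into 5 groups of rising strength, with tied values kept together. In ab4729 the MACS2-only share was 53.5% in the weakest group by −log10 q and 4.11% in the strongest, and in CST9733 it was 52.0% and 1.06%. With ab177178 it was 17.6% and 0.642%. The SEACR-only share by total signal was 83.1% in the weakest group and 9.69% in the strongest with ab177178, 73.3% and 3.14% with Active Motif, 59.9% and 1.40% with Diagenode at 1/100. With ab4729, Diagenode at 1/50 and CST9733 it began at 7.62%, 18.5% and 22.2% and was 0 in the strongest group of each, with upper 95% Wilson bounds of 0.143%, 0.162% and 0.0179%. SEACR-only peaks held 33.2% of all SEACR signal with ab177178, 14.03% with Diagenode at 1/100 and 13.0% with Active Motif, against 0.741% with ab4729. Their median maximum signal was 6, 8, 4, 7, 5 and 3 in ab177178, ab4729, Active Motif, Diagenode at 1/50, Diagenode at 1/100 and CST9733, against 9, 20, 7, 14, 8 and 6 in shared peaks.

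**Figure D4:**
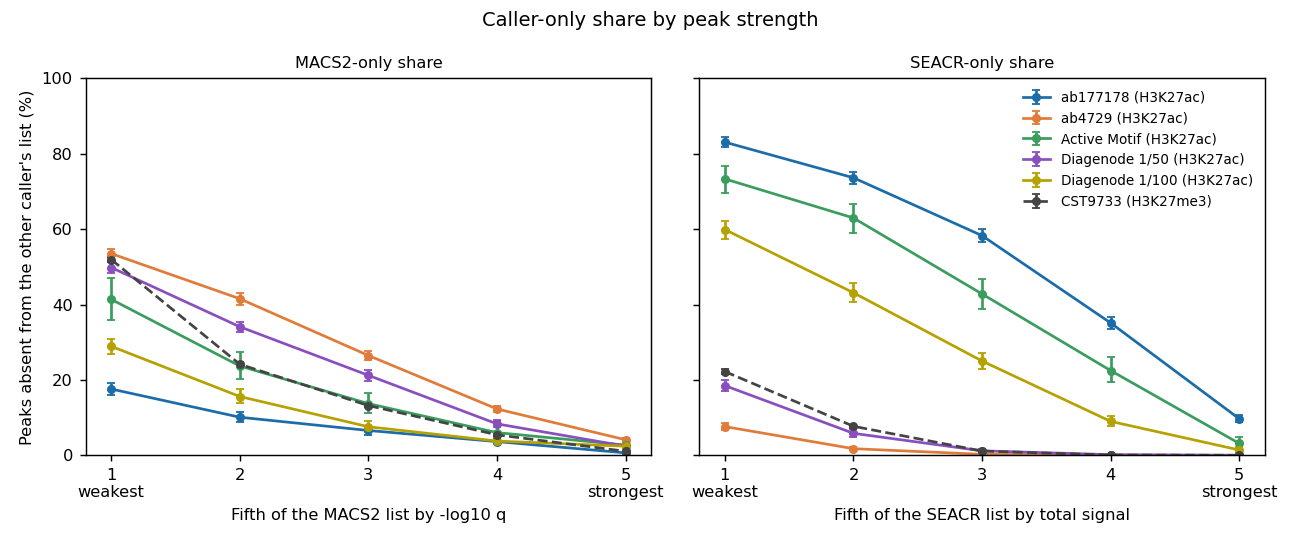
Share of peaks absent from the other caller's list (percent, with 95% Wilson intervals) in 5 groups of rising peak strength, for MACS2 lists ranked by −log10 q (left) and SEACR lists ranked by total signal (right); 1 line per library, dashed for H3K27me3. Every line falls to the strongest group, which holds 0.642% to 4.11% MACS2-only and 0 to 9.69% SEACR-only peaks.

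Some strong peaks were still found by 1 caller. Among MACS2-only peaks the highest −log10 q was 219 at chr7:63572739-63573049 with Diagenode at 1/50, 200253 bp from the nearest SEACR peak, and 148 at chr9:34999153-34999377 with Diagenode at 1/100. The chromosome 9 locus also led the MACS2-only peaks of Active Motif, at chr9:34999158-34999377 with 89.1. The locus chr10:71352047-71352388 was MACS2-only in 4 of the 5 H3K27ac libraries, overlapped no SEACR peak in any of them, and was in none of the 16 downsampled H3K27ac lists.

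A few SEACR-only peaks were tall for their list. Examples taken by rule were chr2:149639295-149639426 with Diagenode at 1/100, 132 bp wide with a maximum signal of 184, and chr13:110076472-110076727 with ab4729, 256 bp wide with a maximum of 151. The chromosome 13 locus was SEACR-only in CST9733 as well, with a maximum of 32. SEACR-only peaks above the 95th percentile of their list's maximum signal numbered 6 with ab177178, 5 with ab4729, 12 with Active Motif, 11 with Diagenode at 1/50, 14 with Diagenode at 1/100 and 4 with CST9733. Their median width was 805, 322, 132, 301, 136.5 and 409 bp in that order, against 2091, 3710.5, 1011, 3532, 1888 and 3316 bp for shared peaks above the same level. With ab177178 the widest of them reached 2333 bp, so not all were narrow. SEACR peaks narrower than the narrowest MACS2 peak of their library were SEACR-only in 0 of 1 with ab177178, 1 of 1 with ab4729, 18 of 23 with Active Motif, 5 of 5 with Diagenode at 1/50, 10 of 13 with Diagenode at 1/100 and 2 of 6 with CST9733. The widest SEACR-only peaks were the opposite kind, low and long, such as chr8:41646217-41653369 with ab177178, 7153 bp wide with a maximum of 7, and chr7:102273932-102281994 with ab4729, 8063 bp with a maximum of 8.

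Caller-only peaks were found less often in other libraries of their antibody. Each peak was looked for in the 4 SEACR lists of the same antibody at 11 and 13 cycles, which were called after downsampling, per the labels. Of MACS2-only peaks, 39.3% were found in at least 1 of these lists with ab177178, 8.07% with ab4729, 38.8% with Active Motif, 13.1% with Diagenode at 1/50, 40.7% with Diagenode at 1/100 and 29.9% with CST9733. Shared MACS2 peaks were found in 70.4%, 53.0%, 76.9%, 57.0%, 80.4% and 66.0% in that order. The mean difference was -39.0 ± 5.11 percentage points (SD, n = 6 libraries; exact two-sided sign-flip permutation p = 0.031, adjusted 0.0469), lower in 6 of 6. These lists are all from SEACR, so a peak that SEACR had not called at 15 cycles is set against the same caller. The lower share of MACS2-only peaks was therefore partly built in, and the test cannot separate this from weaker peaks.

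SEACR-only and shared SEACR peaks were both called by SEACR, and SEACR-only peaks were also found less often. The shares were 35.4% with ab177178, 13.9% with ab4729, 74.9% with Active Motif, 22.04% with Diagenode at 1/50, 63.1% with Diagenode at 1/100 and 30.7% with CST9733. Shared SEACR peaks were found in 71.2%, 62.5%, 77.6%, 65.9%, 81.8% and 68.2%. The mean difference was -31.2 ± 17.3 points (SD, n = 6 libraries; exact two-sided sign-flip permutation p = 0.031, adjusted 0.0469), lower in 6 of 6. Active Motif was the closest, at -2.72 points. SEACR-only peaks were also the weaker ones in each library. Their median percentile of total signal was 9.09 against 50.9 in shared peaks with ab4729, and 32.0 against 71.7 with ab177178. Strength was not held equal, so the test cannot separate being SEACR-only from weaker signal. Within width classes that had at least 20 peaks of each kind, the caller-only share was the lower one in 11 of 11 classes for MACS2 and 15 of 15 for SEACR. The smallest of these gaps was -4.19 points for SEACR, and classes of the same library are not independent. Some classes with fewer peaks went the other way. With Diagenode at 1/100 under 500 bp, 83.3% of 12 SEACR-only peaks were found, against 55.4% of 56 shared ones. Both Diagenode libraries were set against lists at 1/50.

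**Figure D5:**
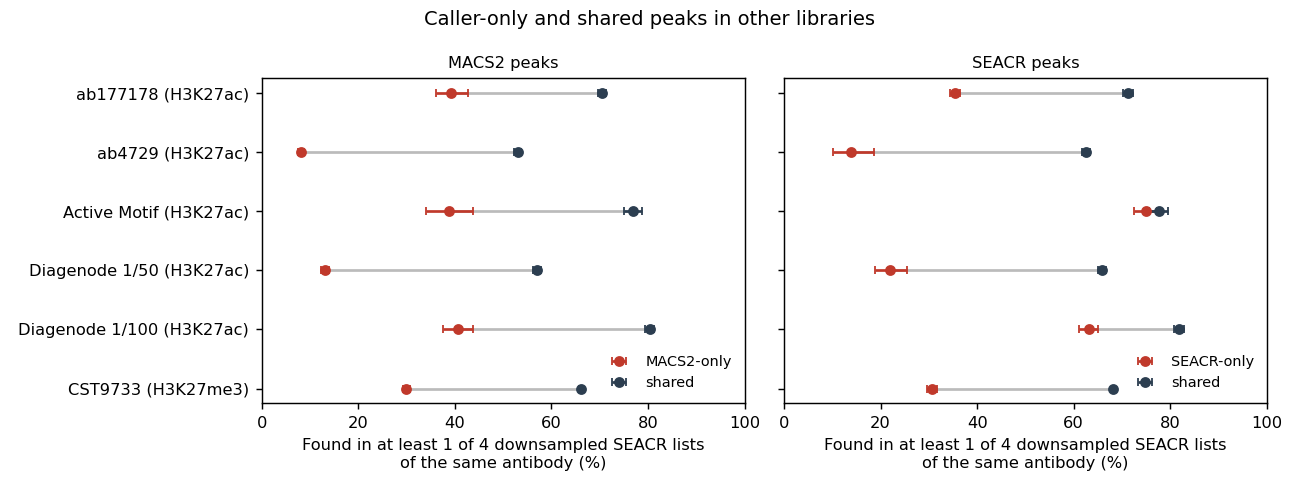
Share of caller-only and shared peaks found in at least 1 of 4 downsampled SEACR lists of the same antibody (percent, with 95% Wilson intervals), for MACS2 peaks (left) and SEACR peaks (right), 1 row per library. Caller-only peaks lie to the left of shared peaks in each row, and the gap is smallest for SEACR peaks of Active Motif, 74.9% against 77.6%.

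The other 15-cycle H3K27ac libraries gave a further view of what each caller left out. Of the SEACR-only peaks, 92.9% with Active Motif and 95.8% with Diagenode at 1/100 overlapped a MACS2 peak of another H3K27ac library, against 90.8% and 98.2% of shared SEACR peaks. With ab4729 and Diagenode at 1/50 the share was 39.4% and 78.9%, against 89.8% and 97.7%. The share was 42.3% with ab177178, against 77.7% of its shared peaks, and 53.3% of its SEACR-only peaks were in no list of another library by either caller. Of MACS2-only peaks, 29.4% with ab4729, 53.8% with Diagenode at 1/50 and 80.3% with Diagenode at 1/100 overlapped a SEACR peak of another H3K27ac library, against 85.0%, 95.5% and 97.4% of shared MACS2 peaks. With ab177178 and Active Motif the MACS2-only share was 53.1% and 59.4%, against 74.4% and 90.1% of shared MACS2 peaks. The Diagenode libraries share an antibody, and each counts among the other libraries of its partner. These libraries differ in list length, so the shares are not ranked across them.

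Most regions were caller-only in 1 library, which does not mean that no other list held them. Merged over the 5 H3K27ac libraries, MACS2-only peaks formed 12343 regions, of which 10423 were MACS2-only in 1 library, 1828 were MACS2-only in 2 libraries, 83 in 3, 9 in 4 and 0 in 5. Of the 10423, 5319 were in no SEACR list of the 5 libraries. SEACR-only peaks formed 11805 regions, with 10799 in 1 library, 934 in 2 libraries, 69 in 3, 3 in 4 and 0 in 5. Of the 10799, 5148 were in no MACS2 list of the 5 libraries. The libraries supplied unlike numbers of such peaks. SEACR-only peaks numbered 8638 with ab177178 and 259 with ab4729, and MACS2-only peaks 7085 with ab4729 and 374 with Active Motif. Recurrence was therefore limited by the libraries with few caller-only peaks. When the lists of the 5 libraries were merged first, 21.1% of 31600 MACS2 regions met no SEACR region and 22.4% of 22222 SEACR regions met no MACS2 region.

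Overlap of H3K27ac peaks with the CST9733 SEACR list differed between caller-only and shared peaks in a library-dependent way. With Active Motif 9.63% of MACS2-only peaks overlapped it against 26.0% of shared MACS2 peaks, and 6.95% of SEACR-only peaks against 25.3% of shared SEACR peaks. With Diagenode at 1/100 the SEACR-only share was 5.07%, against 11.2% of shared SEACR peaks. With ab177178 it was 17.9%, against 14.04%. For ab4729 the MACS2-only and shared shares were 5.67% and 5.22%, with 95% Wilson intervals of 5.16% to 6.24% and 4.91% to 5.55%.

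Location along chromosomes was described against landmarks. These were the first and last peak of each chromosome and 707 spans of at least 500 kb with no peak. MACS2-only peaks lay within 1 Mb of one in 23.9% with ab177178, 30.8% with ab4729, 32.4% with Active Motif, 31.6% with Diagenode at 1/50, 34.0% with Diagenode at 1/100 and 22.98% with CST9733. Shared MACS2 peaks did so in 21.4%, 26.7%, 36.3%, 27.5%, 31.0% and 19.6%. For SEACR-only peaks the shares were 17.6%, 24.3%, 28.4%, 24.8%, 26.8% and 24.7%, against 22.2%, 27.03%, 34.5%, 27.6%, 30.4% and 18.4% of shared SEACR peaks. SEACR-only peaks were the less often near a landmark in the 5 H3K27ac libraries and the more often in CST9733.

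Most caller-only peaks lay at least 1 kb from the nearest peak of the other caller. The median distance of a MACS2-only peak to the nearest SEACR peak was 8511.5 bp with ab177178, 22082 bp with ab4729, 149823.5 bp with Active Motif, 19097 bp with Diagenode at 1/50, 25107 bp with Diagenode at 1/100 and 2556 bp with CST9733. Under 1 kb away were 21.8%, 12.4%, 7.22%, 18.1%, 19.7% and 19.4%. For SEACR-only peaks under 1 kb from a MACS2 peak the shares were 5.67%, 6.18%, 4.04%, 10.03%, 7.24% and 27.9%. The median distance of a SEACR-only peak to the nearest MACS2 peak was 24008.5, 8965, 169572.5, 12435.5, 37424 and 1989 bp in that order. In CST9733 a further 60.9% of MACS2-only and 55.9% of SEACR-only peaks lay 1 to 10 kb away. Distances depend on how many peaks the other list holds, and were not set against those of randomly placed peaks.

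By chromosome, X had the highest caller-only share in CST9733, 25.6% of MACS2 peaks and 11.7% of SEACR peaks, against 19.2% and 6.22% over all chromosomes. Chromosome 22 had the lowest SEACR-only share with ab177178, 42.8% against 52.0% over all, and the highest with ab4729, 5.37% against 1.93%, and with Diagenode at 1/50, 10.25% against 5.13%. In the 5 H3K27ac libraries the MACS2-only share was highest on chromosome 13, 35.7% with ab4729 against 27.5% over all chromosomes. These chromosomes were picked after the values were seen.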

How the data were processed

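Per the submitters' processing notes, the tools used were MACS2, SEACR, bedtools 2.25.0, SAMtools 1.3.1, Picard 2.6.0, Bowtie2 2.2.9, Trim Galore 0.6.6 and bcl2fastq, with the build hg19. The notes state no order and no settings, and SEACR's mode and cutoff were not found in them. Per the labels, duplicates were removed, and libraries of 11 and 13 cycles were downsampled to a common depth before peak calling.

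SEACR lists, as deposited by the authors, hold the total signal, the highest signal and the stretch where it lies. Of the MACS2 columns deposited by the authors, the −log10 q-value ranked and filtered peaks and the summit offset gave positions. The score, the fold enrichment ratio and the −log10 p-value that the authors' MACS2 run wrote for each peak, as deposited, entered no test. Coordinates are counted from 1.

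At least 1 shared bp counted as overlap. Depth is unknown. Wilson 95% intervals cover nothing beyond counting error: reads were amplified by PCR with no molecular identifiers named, and neighbouring peaks are not independent. The 6 tests were exact two-sided sign-flip permutation tests over libraries with Benjamini-Hochberg adjustment. The libraries are conditions, not replicates, and no source says whether they came from separate cultures, so p describes these libraries only. Where all 6 differences had the same sign, p reflects that agreement of sign and not their size or spread. Alternatives changed the overlap required, the MACS2 threshold, list lengths, merging, sequences, libraries, width groups, the nesting and summit rules and the landmark distance.

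Regions named by rule were, per library, the 3 SEACR peaks with the most MACS2 peaks, the 3 SEACR-only peaks of highest total signal, the 3 widest, and the 3 MACS2-only peaks of highest −log10 q, of which some are printed. The members, lists and tests were chosen with earlier results of these data known. Gene tables of hg19 were not used here, so promoter windows, gene lists and sequences were left out. Overlap code was tested on simulated data and against bedtools 2.31.1. Python 3.11.15 ran with scipy 1.17.1, matplotlib 3.10.9, pandas 2.3.3 and numpy 2.4.6.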

Additional observations from a re-analysis of the deposited data

Results flagged for a closer look

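A pair of measures had one sign in all 5 H3K27ac libraries and the opposite sign in the H3K27me3 library, and the difference between marks was not tested because there is 1 H3K27me3 library. The share of SEACR peaks with 2 or more MACS2 peaks, minus the share of MACS2 peaks with 2 or more SEACR peaks, was 3.43 to 28.9 percentage points in H3K27ac and -18.98 points in CST9733. The log2 ratio of covered length, MACS2 over SEACR, was -2.46 to -0.86 in H3K27ac and 0.060 in CST9733. The CST9733 MACS2 list has the layout that MACS2 writes in broad mode, which joins nearby stretches, and a lower −log10 q cutoff. Whether it was called in broad mode is not given in its labels, so mark, mode and cutoff cannot be told apart in these values.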

How the results depend on the processing

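Of 73 alternatives of a tested result, 42 kept the direction and the side of the threshold, 28 kept the direction only and 3 turned the direction. Using H3K27ac libraries only is the same as leaving out CST9733, so these identical values are counted under both settings. A turn of direction there is also counted under both. All 28 come from settings with 5 libraries, so the counts do not measure robustness. The 4 alternatives of values with no test moved them by less than 1 SD over libraries. With 5 libraries the smallest p possible is 0.0625 before adjustment, so the tests below miss the threshold by construction when a library is left out. With H3K27ac libraries only, the difference in MACS2 peaks per SEACR peak between wide and narrow SEACR peaks was 2.63, the log2 width ratio of MACS2-only over shared peaks -0.93, and the differences in support -39.6 points for MACS2-only and -29.9 points for SEACR-only peaks. Leaving out each library in turn gave 1.98 to 2.63 for peaks per SEACR peak, -1.09 to -0.93 for the MACS2-only width ratio, -40.6 to -37.8 points for the support of MACS2-only peaks and -36.9 to -27.7 points for that of SEACR-only peaks. The difference in caller-only share ran from -10.4 points without ab4729 to 3.56 points without ab177178, turning its direction in that 1 case. The log2 width ratio of SEACR-only over shared peaks ran from -0.061 without Active Motif to 0.0050 without CST9733, which is also its value with H3K27ac libraries only. Neither of these was past the threshold.

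Requiring the overlap to take 50% of the shorter peak, equal list lengths, merging, all sequences and −log10 q of at least 10 each left the 4 tests at the smallest p that 6 libraries allow. That shows only that all 6 libraries kept their sign, since the size of the difference does not enter it: peaks per SEACR peak fell to 1.07 with merging, against 2.21 without. The cut at −log10 q of at least 10 also left few MACS2 peaks in CST9733. Over the 5 H3K27ac libraries, landmarks within 200 kb gave a mean difference of 0.49 points for MACS2-only and -2.54 points for SEACR-only peaks, against 1.96 and -3.94 points within 1 Mb; CST9733 is not in these means. No paired analysis was possible because each condition has 1 library and the replicate numbers only name samples; both callers' lists were paired within a library instead. Read depth is unknown, so the depth behind a missed peak cannot be given. Unlike MACS2 cutoffs, and 1 H3K27me3 library, limit what can be said between marks.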
